A study of Homo sapiens with 18 samples.

Results

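IFI44, IFI44L, RSAD2 and CMPK2 are 4 interferon-stimulated genes, taken from the 60252 genes counted in each library for a large difference between the 2 cell lines known from earlier work on these counts. RNA came from ZR-75-1, an established luminal breast cancer line that expresses the estrogen receptor. A control line, called SHC in the protocols, was set beside 1 line in which ADAR was knocked down by a method the labels do not name, so an effect of the knockdown cannot be told apart from any other difference between these lines. Each line was left untreated, given DMSO as vehicle, or given triptolide at 100 nM, which the submitters describe as an inhibitor of RNA polymerase II, for 16 h, all in medium with serum reduced to 1%. The 6 groups held 3 libraries each, 18 in all, numbered 1 to 3 as biological replicates. Where levels are compared in such bulk libraries, fewer expressing cells and less RNA per cell cannot be told apart.

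Type I interferons bind a surface receptor, whose kinases activate the factor ISGF3, which holds IRF9 and binds interferon-stimulated response elements in the promoters of its target genes. ADAR deaminates adenosine to inosine within double-stranded RNA, and without it unedited RNA of the cell itself can be read by the sensor MDA5 as foreign and start this response. IFI44 and its neighbour and paralog IFI44L encode cytoplasmic proteins strongly induced by interferon, both known to dampen interferon signalling. RSAD2 encodes viperin, a radical S-adenosylmethionine enzyme that turns CTP into a chain terminator of viral RNA polymerases. CMPK2, its neighbour, encodes a mitochondrial nucleotide kinase that phosphorylates CMP and UMP and so feeds CTP synthesis. Triptolide binds the XPB subunit of TFIIH and blocks the start of transcription by RNA polymerase II.

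The genes form 2 neighbouring pairs. In GENCODE release 44 on GRCh37, IFI44L (ENSG00000137959.15_2, chromosome 1, 79085587 to 79111830) ends 3650 bases before IFI44 (ENSG00000137965.10_1, chromosome 1, 79115481 to 79129763), both on the plus strand. RSAD2 (ENSG00000134321.11_1, chromosome 2, 7005688 to 7038370, plus strand) and CMPK2 (ENSG00000134326.11_2, chromosome 2, 6980701 to 7006766, minus strand) run in opposite directions, and their annotated spans overlap by 1079 bases. The strand setting of the authors' counting is not given in the sources used here, so reads from that overlap may have been given to neither gene or to either. Of the 50-base words in the RSAD2 transcripts, 5.34% also occur on the opposite strand of other genes' transcripts, and for CMPK2 6.82% do, all in RSAD2. For IFI44 and IFI44L no such word was shared with another gene on either strand.

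Promoter sequences are shown because these genes are defined by their answer to interferon, and because RSAD2 and CMPK2 share a start region. They come from the RefSeq promoter table (GRCh38.p14), which held 8 windows of 300 bases around start sites of the 4 genes, and each window matched GRCh37 exactly at 1 place. The core of the interferon-stimulated response element was searched as GAAANNGAAA on both strands, and the shorter core bound by interferon regulatory factors as AANNGAAA, which every match of the longer one contains. In the stretch before the IFI44 start at 79115474 (chr1:79115374-79115473, plus strand), which lies in no annotated exon, capitals mark the response element core and the shorter cores that overlap it, and a separate shorter core lies upstream at position -121.
IFI44: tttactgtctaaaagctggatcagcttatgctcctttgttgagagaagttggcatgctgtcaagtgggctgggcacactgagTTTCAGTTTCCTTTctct
IFI44L held 2 identical response element cores (capitals), at positions -164 and -73 from its start at 79086133 (chromosome 1, 79085959 to 79085988 and 79086050 to 79086079), and separate shorter cores at -181 and -90.
IFI44L: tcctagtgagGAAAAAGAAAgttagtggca
RSAD2 held 1 such core at position -145 from the start at 7017908 (chromosome 2, 7017753 to 7017782), and a separate shorter core at -124 (7017774 to 7017801).
RSAD2, response element core: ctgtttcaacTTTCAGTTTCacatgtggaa
RSAD2, shorter core: catgtggaaaAATCGAAActctaactca
A more distal RSAD2 start at 7006016 held 0 response element cores and 4 copies of a shorter core, at positions -151, -117, -83 and -59 (chromosome 2, 7005855 to 7005974).
RSAD2 distal, copy at -151: cccgcctcggAAACGAAAcctggcggga
RSAD2 distal, copy at -117: cgccggcgggAAACGAAAcccggaggga
RSAD2 distal, copy at -83: cgccagcgggAAACGAAAgcgaagcgtt
RSAD2 distal, copy at -59: cgttgcggggAAACGAAAgccggaggcc
CMPK2, read from the opposite strand, held 0 response element cores in its 3 windows and 2 shorter cores by the start at 7005950, and these are the same bases as the RSAD2 copies at -59 (shown, 7005951 to 7005974, minus strand) and -83.
CMPK2: ggcctccggcTTTCGTTTccccgc

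For comparison, the response element core occurred in 3.57% of 35116 windows of the whole table (4.38% of 27305 genes) and the shorter core in 22.8% of windows (26.7% of genes). A match is a run of letters, not a measured binding site. Unlike the IFI44 stretch, the 200 bases before the IFI44L start held 66 bases of annotated exons. The 150 bases before each RSAD2 start and the 100 bases before the CMPK2 start at 7005950 lay wholly in annotated exons.

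Counts in genes ran from 26709657 to 35674502 per library, and 21285 genes, the 4 among them, passed the low-count filter. Levels are given as counts per 1000000 counts after TMM scaling (CPM). All 12 luminal markers reached a mean of 1 CPM, with the keratin KRT8 at 2732 CPM, against 3 of 12 leukocyte, 1 of 8 stromal, 2 of 5 endothelial and 3 of 6 basal markers, none of these groups having a gene above 15.6 CPM. Summed leukocyte markers ran from 9.36 to 30.5 CPM in control and from 7.13 to 34.2 CPM in knockdown libraries. ADAR was lower in the knockdown in 9 of 9 pairs of equal replicate number. It stood at 74.0, 51.0 and 65.7% of control in untreated pairs 1, 2 and 3, at 64.1, 53.6 and 77.5% with DMSO and at 31.2, 35.0 and 44.4% with triptolide. Equal numbers mark paired libraries, and all 6 libraries numbered 3 stand apart in the genes described here, so results are given by pair and also from a fit that takes the number as a block. With that block, edgeR's quasi-likelihood test called the ADAR line difference under triptolide (adjusted p = 0.000192). It was not called untreated (0.137) or with DMSO (0.144), and without the block in no treatment.

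The level of the 4 genes depended first on the replicate number. IFI44 stood at 3.63, 14.5 and 0.636 CPM in untreated control libraries 1, 2 and 3, from 139, 430 and 23 counts. In untreated knockdown libraries it stood at 57.4, 101 and 0.598 CPM, from 2034, 2861 and 20 counts. Libraries 1 and 2 were thus far above library 3 in both lines, and knockdown library 3 was no higher than control library 3. IFI44L had the same order, with 3.5, 27.5 and 0.0830 CPM in untreated control cells and 43.6, 126 and 0.359 CPM in untreated knockdown cells. Its counts in the libraries numbered 3 were 3, 0 and 5 in untreated, DMSO and triptolide control cells and 12, 21 and 3 in knockdown cells. RSAD2 stood at 1.62, 2.76 and 0.0553 CPM in untreated control and 7.90, 8.95 and 0.568 CPM in untreated knockdown cells. CMPK2 stood at 1.98, 4.2 and 0.194 CPM in untreated control and 6.49, 6.37 and 0.329 CPM in untreated knockdown cells.

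**Figure D1:**
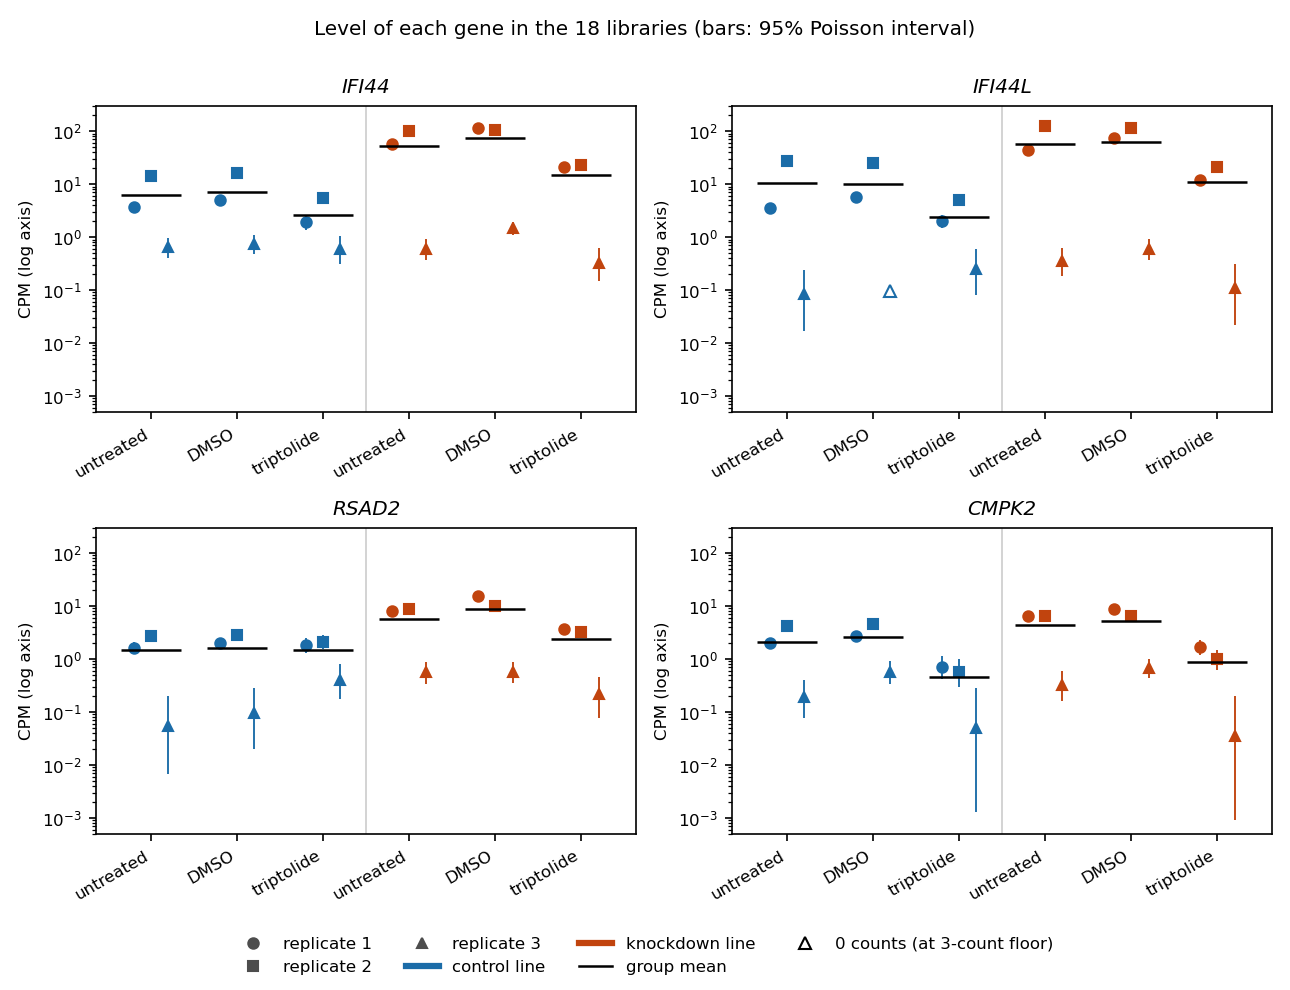
Level of IFI44, IFI44L, RSAD2 and CMPK2 in each of the 18 libraries, in CPM on a log axis, by line and treatment, with the group mean as a black line and 95% Poisson intervals as bars. Libraries numbered 3 (triangles) lie below those numbered 1 and 2 in every panel and group, and the open triangle is IFI44L with 0 counts, drawn at the floor of 3 counts.

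In the fit of the 6 groups together with the replicate number, that number differed for 4 of 4 genes by edgeR's quasi-likelihood test on 2 degrees of freedom, against a background of 60.7% of all genes tested. Over all groups, replicate 3 lay 29.1-fold below replicate 1 for IFI44 (adjusted p = 6.02e-08), 90.8-fold for IFI44L (7.05e-11), 15.9-fold for RSAD2 (2.72e-09) and 11.7-fold for CMPK2 (2.75e-08). The fit takes the same gap in all 6 groups, whereas the measured gap differed between lines. From untreated library 1 to 3, IFI44 went from 3.63 to 0.636 CPM in control and from 57.4 to 0.598 CPM in knockdown cells. RSAD2 went from 1.62 to 0.0553 and from 7.90 to 0.568 CPM, a smaller gap in knockdown cells. Replicate 2 lay above replicate 1 by 0.83 for IFI44 and 1.54 for IFI44L on the log2 scale, and by 0.11 and 0.10 for RSAD2 and CMPK2. Without replicate 3, only IFI44 and IFI44L passed the test, 2 of 4, against 9748 of all 21285 genes tested. ADAR itself was 1.32-fold lower in replicate 3 than in replicate 1 (adjusted p = 0.00016). The labels do not say what else differed between the replicates, and its part in these levels was not tested.

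Between the lines, the levels in the knockdown were higher in 11 of 12 values untreated, 12 of 12 with DMSO and 8 of 12 with triptolide. This counts 3 pairs for each of the 4 genes, which share the same libraries, so the 12 values are not independent. The genes were chosen by the difference between the lines, so these values are a description with no test. IFI44 with DMSO stood at 4.98, 15.9 and 0.742 CPM in control libraries 1, 2 and 3 and at 114, 104 and 1.48 CPM in knockdown libraries. The ratio of knockdown to control was thus 22.8 in pair 1, 6.55 in pair 2 and 1.99 in pair 3, against 15.8, 6.97 and 0.939 untreated. For IFI44L with DMSO, control libraries held 5.62, 25.1 and 0 CPM and knockdown libraries 75.2, 112 and 0.596 CPM. Its ratios were 13.4 and 4.47 in pairs 1 and 2, and at least 6.16 in pair 3, taken against a floor of 3 counts per library. Untreated, the IFI44L ratios were 12.5, 4.57 and 4.32, the last from 12 against 3 counts with a 95% counting interval of 1.17 to 23.9.

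RSAD2 differed less between the lines than IFI44 and IFI44L in pairs 1 and 2. With DMSO it stood at 2.03, 2.81 and 0.0968 CPM in control and 15.5, 10.2 and 0.568 CPM in knockdown cells, ratios of 7.63, 3.61 and 5.87, the last from 20 against 3 counts (interval 1.74 to 30.8). Untreated, the ratios were 4.88, 3.24 and 10.3, the last from 19 against 2 counts (2.48 to 90.9). CMPK2 had the smallest difference, with DMSO levels of 2.73, 4.49 and 0.581 CPM in control and 8.81, 6.38 and 0.681 CPM in knockdown cells. Its ratios were 3.23, 1.42 and 1.17 with DMSO and 3.27, 1.52 and 1.70 untreated. Across these genes and treatments, pair 1 always had a larger ratio than pair 2. ADAR was reduced less in pair 1 than in pair 2 without triptolide, and more with it (31.2 against 35.0% of control). A link between the ADAR level and these ratios was not tested.

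**Figure D2:**
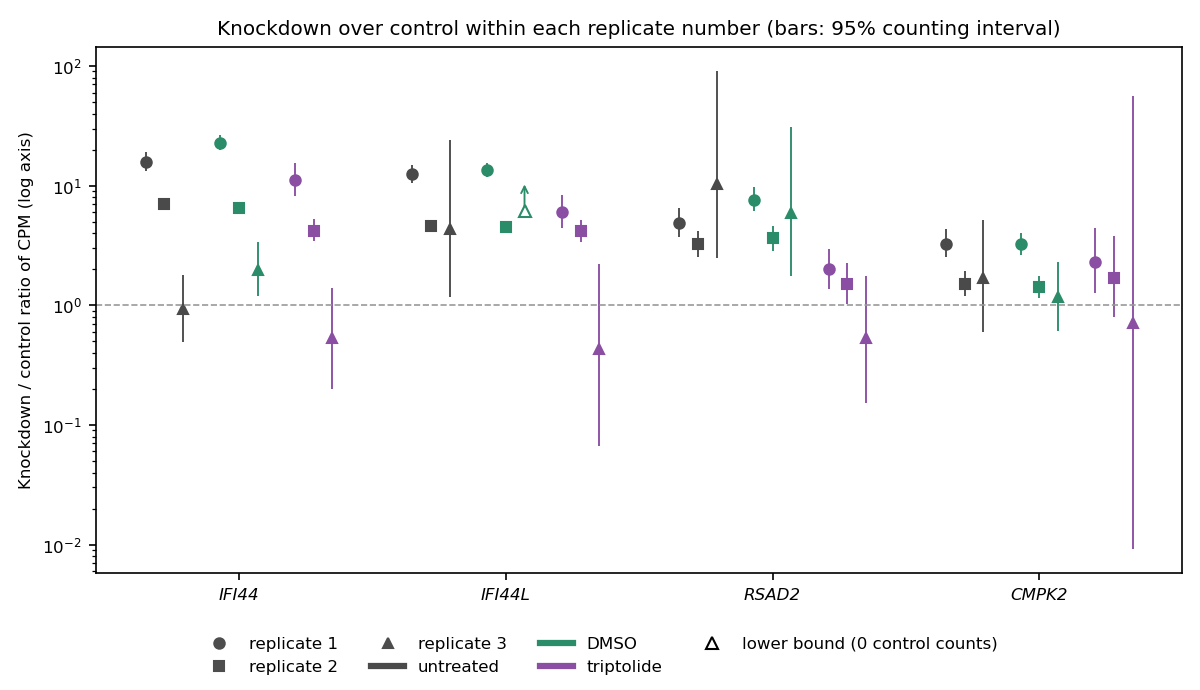
Ratio of knockdown to control CPM within each pair of equal replicate number, on a log axis, for the 3 treatments, with 95% counting intervals as bars and a dashed line at equal levels. Pairs 1 and 2 lie above the line for each gene and treatment, and under triptolide the 4 pairs numbered 3 lie below it.

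Under triptolide the difference between lines was smaller in pairs 1 and 2 than with DMSO for IFI44, IFI44L and RSAD2. The IFI44 ratios were 11.0, 4.2 and 0.535, and those of IFI44L 6.04, 4.17 and 0.428, the last from 3 against 5 counts (0.0665 to 2.20). For RSAD2 they were 2.0, 1.51 and 0.535, and for CMPK2 2.31, 1.69 and 0.714, the last from 1 count in each line (0.00910 to 56.0). The fitted log2 differences with DMSO, knockdown minus control, were 3.34 ± 1.61 (SE, n = 3) for IFI44, 2.61 ± 1.89 for IFI44L, 2.4 ± 1.25 for RSAD2 and 1.02 ± 1.12 for CMPK2. With the replicate block they were 3.20 ± 0.55, 3.01 ± 0.40, 2.38 ± 0.32 and 0.92 ± 0.34. The groups overlapped for every gene and treatment because of the libraries numbered 3. Of all genes tested, 0.0282% were called higher in knockdown cells untreated, 0.0376% with DMSO and 0.0188% with triptolide, and with the block 0.301, 0.357 and 0.385%.

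Ranked among the 58 tested interferon-stimulated genes by the log2 line difference averaged over the 3 treatments, IFI44 was the first at 2.97, IFI44L the second at 2.41, RSAD2 the fourth at 1.69 and CMPK2 the eighth at 1.00. The members were chosen by the line difference, so high ranks follow from that choice and are not a result. Genes of the list around them were RTP4, a chaperone of G protein-coupled receptors, at 2.0 but with a mean of only 0.471 CPM and single treatments from -0.04 to 5.03. IFI27, a mitochondrial interferon-induced protein, was at 1.23, IFITM3, a membrane protein that blocks virus entry, at 1.08, and XAF1, an antagonist of the apoptosis inhibitor XIAP, at 1.07. The values of the other genes of the list were also uneven, and this spread was not tested. The median of the 54 other tested genes of the list was 0.18 untreated and 0.26 with DMSO.

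With replicates paired, CMPK2 and IFI44L fell with triptolide in control cells and all 4 genes in knockdown cells, and RSAD2 in control cells stood out by its small change. In control cells IFI44 was at 1.91, 5.37 and 0.601 CPM under triptolide, which is 38.3, 33.9 and 81.0% of the DMSO level in pairs 1, 2 and 3. IFI44L was at 1.99, 5.08 and 0.251 CPM, 35.4 and 20.3% of DMSO in pairs 1 and 2. In pair 3 it went from 0 to 5 counts, at least 2.59-fold higher against the floor of 3 counts. CMPK2 was at 0.720, 0.581 and 0.0501 CPM, 26.4, 12.9 and 8.63% of DMSO, the last from 1 count (interval of the ratio 0.0021 to 0.546). RSAD2 kept 89.5 and 75.7% of its DMSO level in pairs 1 and 2, at 1.82 and 2.13 CPM. In pair 3 RSAD2 had 8 counts under triptolide against 3 with DMSO, a ratio of 4.14 with a counting interval of 0.994 to 24.2.

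Without the block, 0 of 4 genes passed the edgeR test in control cells, with 0 at an unadjusted p under 0.05 and 0 by DESeq2, against 16.0% of all genes called lower. With the block 2 of 4 fell, against 26.0%. CMPK2 fell by 2.65 ± 0.44 on the log2 scale (SE, n = 3, adjusted p = 4.32e-05) and IFI44L by 1.8 ± 0.45 (adjusted p = 0.00236). IFI44 had -1.46 ± 0.62 (adjusted p = 0.0558) and RSAD2 -0.03 ± 0.36 (adjusted p = 0.959). Without the block the values were -2.50 ± 1.27 for CMPK2, -2.06 ± 1.93 for IFI44L, -1.45 ± 1.57 for IFI44 and -0.18 ± 1.26 for RSAD2, at adjusted p = 0.148, 0.452, 0.521 and 0.93. Leaving out DMSO control library 2 moved IFI44L to -0.21 and IFI44 to -0.12, and leaving out triptolide control library 2 moved them to -3.15 and -2.5. In pairs 1 and 2 alone, with the block, IFI44 passed too (adjusted p = 0.0115) and RSAD2 again did not (-0.29 ± 0.33, adjusted p = 0.512).

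In knockdown cells each gene was lower with triptolide in each of the 3 pairs, 12 of 12 values. IFI44 was at 21.0, 22.6 and 0.322 CPM, 18.5, 21.7 and 21.8% of the DMSO level. IFI44L was at 12, 21.2 and 0.107 CPM, 16.0, 18.9 and 18% of DMSO, the last from 3 counts (interval of the ratio 0.0344 to 0.603). RSAD2 was at 3.65, 3.23 and 0.215 CPM, 23.5, 31.7 and 37.8% of DMSO, so that it was again the gene with the largest share left. CMPK2 was at 1.67, 0.982 and 0.0358 CPM, 18.9, 15.4 and 5.25% of DMSO, the last from 1 count (interval of the ratio 0.0013 to 0.322).

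**Figure D3:**
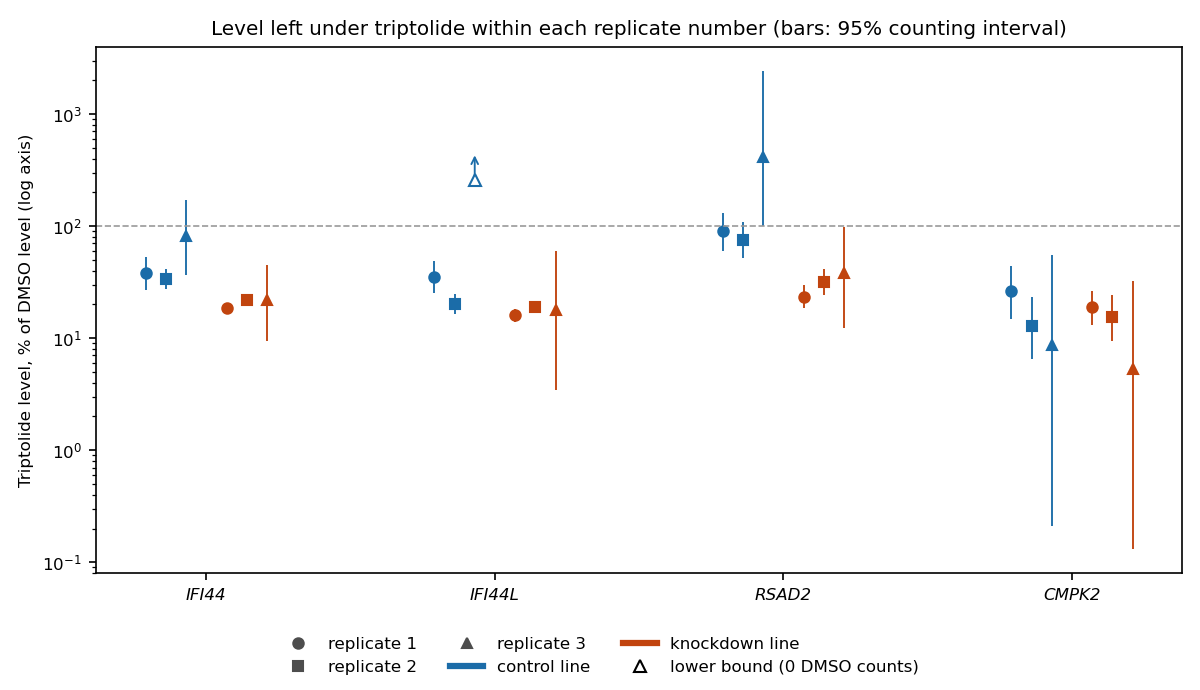
Level under triptolide as a percentage of the DMSO level of the same line and replicate number, on a log axis, with 95% counting intervals as bars and a dashed line at 100%. All 12 knockdown values lie below 100%, and in control cells RSAD2 lies at 89.5 and 75.7% in pairs 1 and 2 and above 100% in pair 3.

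Without the block, 0 of 4 genes were called in knockdown cells by edgeR and 0 by DESeq2, with CMPK2 the 1 gene at an unadjusted p under 0.05, against 18.9% of all genes called lower. With the block 4 of 4 fell, against 28.1%. The log2 change was -2.24 ± 0.50 for IFI44 (adjusted p = 0.000765), -2.57 ± 0.40 for IFI44L (1.91e-05), -1.82 ± 0.32 for RSAD2 (6.2e-05) and -2.63 ± 0.38 for CMPK2 (7.64e-06). Without it the values were -2.32 ± 1.54, -2.50 ± 1.88, -1.90 ± 1.24 and -2.59 ± 1.21, at adjusted p = 0.252, 0.316, 0.244 and 0.106. Leaving out DMSO knockdown library 1 moved RSAD2 to -1.19. The size of each change was thus nearly the same in both fits, and the standard errors differed. The median over the 4 genes was -1.76 in control and -2.41 in knockdown cells, against 0.03 and 0.04 over all genes tested. The interaction of line and triptolide holds the line difference and is given as a description: -0.87 ± 2.15 for IFI44, -0.44 ± 2.61 for IFI44L, -1.72 ± 1.75 for RSAD2 and -0.09 ± 1.83 for CMPK2. With the replicate block it was -0.79 ± 0.79, -0.77 ± 0.59, -1.79 ± 0.48 and 0.01 ± 0.47 in the same order, again with no test. The IFI44L and RSAD2 values then exceeded 1 standard error in size, and that of CMPK2 changed sign.

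**Figure D4:**
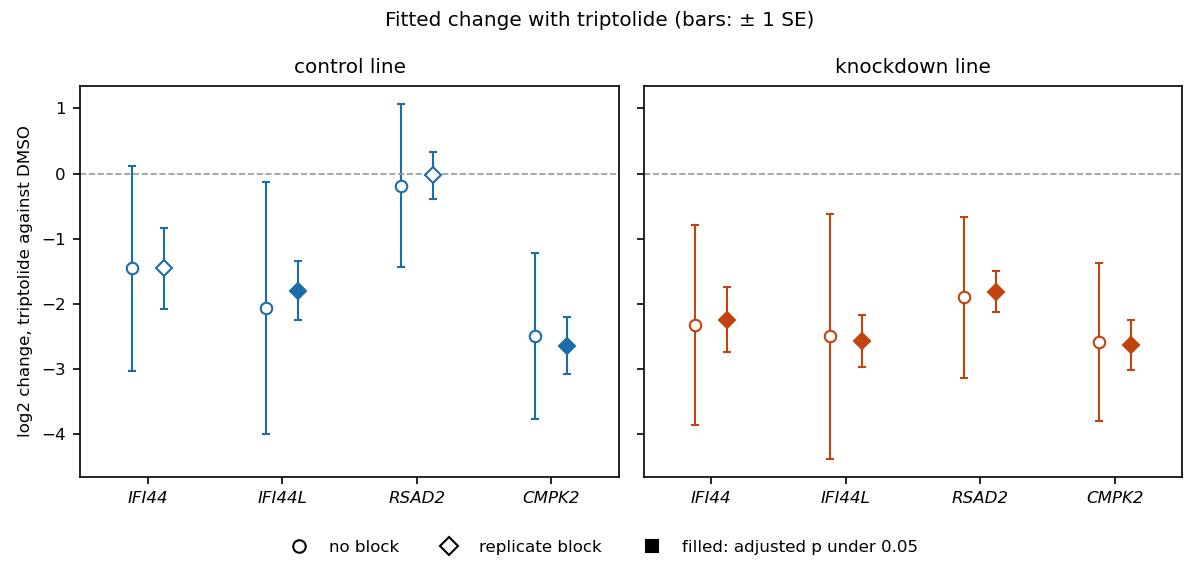
Fitted log2 change, triptolide against DMSO, for each gene in control and knockdown cells, with bars of 1 standard error. Circles are the fit without the replicate block and diamonds the fit with it, filled where the adjusted p is under 0.05: 0 circles in either line, and 2 diamonds in control and 4 in knockdown cells.

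Mitochondrial rRNA took 42.7 to 55.2% of the counts in genes in the triptolide libraries against 20.2 to 37.1% in the others. Its part in the changes was not tested, and the values are also given under other scalings. Scaled by the counts in genes alone, the median of all genes moved from 0.03 to -0.60 in control and from 0.04 to -0.67 in knockdown cells, and scaled by the 13 mitochondrial mRNAs to -0.79 and -1.36. All 8 values of the 4 genes stayed negative under each of these scalings. Both scalings shifted the median of all genes down, so negative values were bound to stay negative and this does not check their direction. RSAD2 in control cells then had -0.79 and -0.88, close to the median of all genes, whereas CMPK2 had -3.07 and -3.21. The split of calls over all genes moved from 3162 higher and 3403 lower in control cells to 1600 and 7575 by counts in genes and to 1064 and 5988 by mitochondrial mRNAs. In knockdown cells it moved from 3560 and 4029 to 1507 and 8513 and to 827 and 11413.

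The ratio of RSAD2 to CMPK2 counts needs no scaling, since both genes are counted in the same library. In control cells it was 0.816, 0.656 and 0.286 in untreated libraries 1, 2 and 3, and 0.746, 0.626 and 0.167 with DMSO. Under triptolide it was 2.53, 3.67 and 8.0. In knockdown cells it was 1.22, 1.40 and 1.73 untreated, 1.76, 1.59 and 0.833 with DMSO, and 2.19, 3.29 and 6.0 under triptolide. The ratio was thus higher under triptolide than with DMSO in 6 of 6 pairs, and triptolide values lay above all DMSO values of the same line. It was also higher in knockdown than in control cells in 3 of 3 pairs untreated and 3 of 3 with DMSO, and in 0 of 3 under triptolide. The counts behind the values of the libraries numbered 3 are small: 8 against 1 in control and 6 against 1 in knockdown cells with triptolide, with exact intervals of 1.07 to 355 and 0.728 to 276. This ratio was chosen after the values were seen and carries no test.

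**Figure D5:**
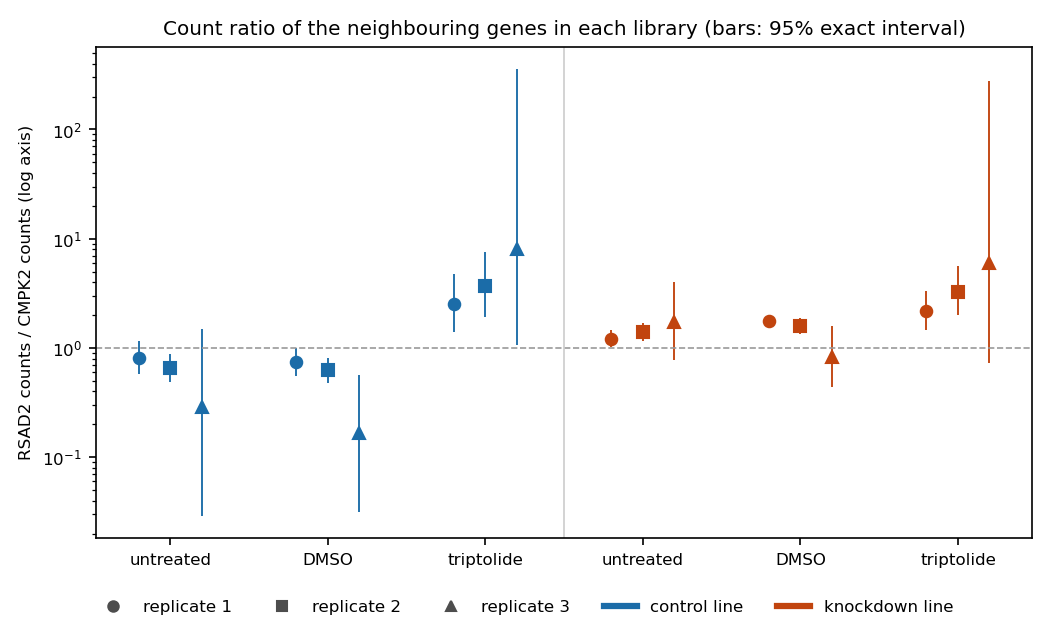
RSAD2 counts divided by CMPK2 counts in each library, on a log axis, by line and treatment, with 95% exact intervals as bars and a dashed line at equal counts. Triptolide values lie between 2.19 and 8.0, above the DMSO values of either line, which lie between 0.167 and 1.76.

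The IFI44L to IFI44 count ratio behaved differently. In libraries numbered 1 it was 0.964, 1.13 and 1.04 in untreated, DMSO and triptolide control cells and 0.760, 0.661 and 0.572 in knockdown cells. In those numbered 2 it was 1.90, 1.58 and 0.946 in control and 1.25, 1.08 and 0.938 in knockdown cells. In those numbered 3 it was 0.130 untreated and 0.417 with triptolide in control cells, with 0 IFI44L counts with DMSO, and 0.6, 0.404 and 0.333 in knockdown cells. The ratio was thus higher in libraries numbered 2 than in those numbered 1 for 5 of the 6 groups, and it was lower under triptolide than with DMSO in 5 of 6 pairs. Control pair 3 went the other way, from 0 IFI44L against 23 IFI44 counts with DMSO to 5 against 12 with triptolide.

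DMSO was compared with no treatment to see whether the vehicle moved the genes. Of 12 pairs, 10 were higher with DMSO in control and 10 in knockdown cells. In knockdown pair 1 IFI44 went from 2034 to 4725 counts (1.98-fold), RSAD2 from 280 to 645 (1.96-fold), IFI44L from 1546 to 3125 (1.72-fold) and CMPK2 from 230 to 366 (1.36-fold). In knockdown pair 2 the same ratios were 1.03, 1.14, 0.891 and 1.00. The fitted log2 differences were 0.21 ± 1.5 for IFI44, -0.01 ± 1.8 for IFI44L, 0.17 ± 1.23 for RSAD2 and 0.30 ± 1.12 for CMPK2 in control cells. In knockdown cells they were 0.47 ± 1.46, 0.15 ± 1.77, 0.59 ± 1.18 and 0.27 ± 1.10. By edgeR 0 of 4 genes were called in either line, with or without the block, against 0.0% of all genes, and 0 of 4 were under an unadjusted p of 0.05. Over all genes, 121 in control and 208 in knockdown cells were under an unadjusted p of 0.05 (274 and 747 with the block), and DESeq2 called 0 in each.

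The rest of the interferon pathway gives the setting, and the counts of each list are to be read against the share of all genes called: 16.0% lower and 14.9% higher in control and 18.9% lower and 16.7% higher in knockdown cells without the block. Those shares were 26.0% lower and 26.1% higher in control and 28.1% lower and 29.1% higher in knockdown cells with the block. Of the 9 interferon genes listed, IFNL2 alone passed the low-count filter, at a mean of 0.109 CPM, and IFNB1 averaged 0.0566 CPM. The receptor chains IFNAR1 and IFNAR2 averaged 25.8 and 1.03 CPM and the kinases JAK1 and TYK2 79.9 and 42.4 CPM. Of the 9 listed receptor, kinase and ISGF3 genes, 1 fell with triptolide in each line without the block: IRF9, the DNA-binding partner in ISGF3, by 3.05 ± 0.87 in control (adjusted p = 0.0131) and 2.80 ± 0.86 in knockdown cells (0.0177) on the log2 scale. With the block 2 rose and 2 fell in control cells and 3 rose and 2 fell in knockdown cells. Among 9 tested sensors and adaptors, 2 fell in control cells, the kinase TBK1 (-1.57 ± 0.30, adjusted p = 0.000837) and the adaptor MAVS (-0.54 ± 0.15, 0.0116). In knockdown cells 4 fell, these 2 with the sensor genes RIGI (-3.18 ± 1.04, 0.024) and TLR3 (-2.59 ± 0.92, 0.0362). The block gave 5 and 6 lower and 0 higher.

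Of the 54 other interferon-stimulated genes tested, 4 fell with triptolide in control and 7 in knockdown cells, and 0 rose, without the block. These are 7.41 and 13% of the list, below the 16.0 and 18.9% of all genes called lower. In control cells these were IRF9, IFIT5, which binds RNA (-2.55 ± 0.85, adjusted p = 0.0294), the nuclear body protein gene SP110 (-1.61 ± 0.56, 0.0377) and the ubiquitin ligase gene TRIM21 (-1.30 ± 0.47, 0.0457). In knockdown cells the same 4 passed, together with RIGI, IFIT3 (-4.59 ± 1.48, 0.0222) and NMI (-0.77 ± 0.28, 0.0397). With the block 20 fell and 9 rose in control cells and 26 fell and 11 rose in knockdown cells, against 26.0 and 28.1% of all genes lower and 26.1 and 29.1% higher. The list median was -0.39 in control and -0.72 in knockdown cells, nearer to 0 than that of the 4 genes described here. Among the genes that rose with the block were IFI27, at 1.27 ± 1.67 in control and 1.13 ± 1.67 in knockdown cells without it (adjusted p = 0.00427 and 0.00321 with it), and BST2, the virus-tethering protein tetherin, at 0.97 ± 0.76 and 1.05 ± 0.76 (2.81e-05 and 6.31e-06). The replicate number term called 53 of the 54, against 60.7% of all genes tested. Of these 53, 52 were lower in replicate 3 than in replicate 1, against 6828 of the 12923 called over all genes.

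The IFIT family, RNA-binding antiviral proteins, had triptolide changes of the same order as IFI44 and IFI44L. Of its 4 tested genes, 1 fell in control and 2 in knockdown cells without the block, 4 in each with it, and the medians were -2.53 and -2.99. The OAS family, whose members sense double-stranded RNA, had 0 of 4 genes called in either line without the block by edgeR, 0 at an unadjusted p under 0.05 and 0 by DESeq2, with medians of -0.42 and -0.60. With the block 1 fell in control and 2 in knockdown cells. The shares of all genes called lower with the block were 26.0 and 28.1%. Of 8 negative regulators of the response, PIAS1 and TRIM21 fell in control cells, and these with SOCS1 (-2.22 ± 0.81, adjusted p = 0.0404) and ADAR (-1.06 ± 0.33, 0.0195) in knockdown cells. FKBP5, a chaperone bound by the IFI44 protein, had -0.12 ± 0.22 and -0.02 ± 0.22, adjusted p = 0.724 and 0.958.

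For the substrate side of RSAD2 and CMPK2, 17 genes of pyrimidine nucleotide kinases and CTP synthesis were listed. In control cells 4 fell with triptolide and 0 rose, namely UCK2 (-1.30 ± 0.20, adjusted p = 0.000121) and UCK1 (-0.73 ± 0.25, 0.037), both uridine-cytidine kinases, the nucleoside diphosphate kinase gene NME6 (-1.19 ± 0.24, 0.00124) and the mitochondrial thymidine kinase gene TK2 (-0.82 ± 0.21, 0.00693). In knockdown cells UCK2, NME6 and TK2 fell, while NME4 (0.97 ± 0.29, 0.014) and UCKL1 (0.80 ± 0.27, 0.0301) rose. CMPK1, the cytosolic counterpart of CMPK2, had 0.51 ± 0.21 in control and 0.37 ± 0.21 in knockdown cells, adjusted p = 0.0669 and 0.175, and averaged 57.2 CPM. With the block it rose in both, at adjusted p = 0.00386 and 0.0307. Of the 12 genes for viperin partners and iron-sulfur cluster delivery, TRAF6, a ubiquitin ligase bound by viperin, fell by 2.24 ± 0.41 in control (adjusted p = 0.000568) and 2.65 ± 0.41 in knockdown cells (0.000134). CIAO2A, of the cytosolic iron-sulfur targeting machinery, rose in control cells (0.54 ± 0.18, 0.0336), whereas in knockdown cells FDPS, a viperin target in isoprenoid synthesis, rose (0.54 ± 0.21, 0.0474) and NUBP1 fell (-0.93 ± 0.33, 0.0369).

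To compare levels between genes, CPM were divided by the length of each gene's merged exons in kb. In untreated control cells the order was IFI44 at 3.06 ± 3.57 CPM per kb (SD, n = 3), IFI44L at 0.894 ± 1.29, CMPK2 at 0.485 ± 0.458 and RSAD2 at 0.261 ± 0.240. In untreated knockdown cells it was IFI44 at 26.0 ± 24.6, IFI44L at 4.87 ± 5.49, RSAD2 at 1.03 ± 0.807 and CMPK2 at 1.00 ± 0.803. The SD was about as large as the mean in each group, and neighbours in the order did not differ beyond it. Within libraries, IFI44 stood above IFI44L per kb in all 18. The exon union of IFI44L, 11610 bases, sums all its annotated transcripts and exceeds the 2038 bases of IFI44, so a shorter transcript in these cells would raise its value.

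Over the 18 libraries the 4 genes moved together, with Pearson correlations of log2(CPM + 1) between pairs of members from 0.90 (RSAD2 with CMPK2) to 0.984 (IFI44L with IFI44). Among 14392 genes with a mean of at least 1 CPM, the members included, the 8 non-members most like the mean of the 4 were XAF1 (r = 0.968), PLSCR1 (0.914), a phospholipid scramblase, GRIK3 (0.913), a kainate-type glutamate receptor subunit, IFIT1 (0.905), IFIT2 (0.902), OASL (0.901), the long noncoding RNA BISPR (0.895) and the ADP-ribosyltransferase family gene PARP9 (0.893). XAF1 was among the 3 most like each member. The others were GRIK3 (0.934) and BISPR (0.859) for IFI44, GRIK3 (0.929) and IFIH1 (0.919), the gene of MDA5, for IFI44L, ENSG00000246465 and OASL (both 0.881) for RSAD2, and IFIT3 (0.96) and PLSCR1 (0.957) for CMPK2. The libraries share the step from replicate 3 to the others, and these values were not separated from that step.

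The genes beside the pairs were read for comparison. Within 100000 bases of IFI44L and IFI44, PTGFR, a prostaglandin receptor gene, had 28 counts over all 18 libraries, and 2 pseudogenes had 76 and 7. Beside CMPK2 and RSAD2, the ubiquitin ligase gene RNF144A was the 1 neighbour tested, with 3661 counts. Untreated, it averaged 7.21 ± 1.04 CPM (SD, n = 3) in the control line and 7.46 ± 1.11 CPM in the knockdown, against 6.57 ± 1.25 and 8.05 ± 1.73 CPM with DMSO. Its log2 line difference was 0.05 ± 0.29 untreated and 0.29 ± 0.29 with DMSO, adjusted p = 1 in each by edgeR. With triptolide RNF144A had -0.73 ± 0.30 in control and -0.72 ± 0.29 in knockdown cells (adjusted p = 0.0693 and 0.0632), and fell with the block (0.00179 and 0.00178). NRIR, a long noncoding RNA next to CMPK2 that is itself known as a negative regulator of the interferon response, had 12 counts over all libraries.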

How the data were processed

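RNA from 18 libraries of ZR-75-1 cells, 2 lines by 3 treatments with 3 biological replicates each, was read as the raw counts per gene that the authors deposited, one library per file and not normalized. Per the submitters' processing notes, reads were handled with STAR 2.4.2a, HTSeq 0.6.1, DESeq2 1.4.5, R 3.1 and hg19, and per the labels libraries were made with a stranded total RNA kit. Whether counting used the strand is not given in the sources used here. Of 60252 gene IDs, 58822 (97.6%) were matched to GENCODE release 44 on GRCh37. The 5 rows that tally unassigned reads, equal to 24.9 to 35.4% of all counted rows, stayed out of library sizes and tests.

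Counts were fitted in edgeR 4.0.16 (limma 3.58.1, R 4.3.3) and tested by quasi-likelihood, with TMM scaling and the package's low-count filter, in 1 fit of all libraries with 12 residual degrees of freedom, two-sided, with Benjamini-Hochberg adjustment over all genes and calls at an adjusted p under 0.05. Standard errors are the change over the square root of F. DESeq2 1.42.0, other scalings, no filter, only the groups compared and leaving out libraries were alternatives. Equal replicate numbers pair the libraries: residuals of different groups correlated at 0.307 to 0.688 for equal numbers (45 pairs), at -0.519 to 3.38e-05 for unequal ones (90 pairs), and for 18 of 18 libraries the best match was with their own number. Residuals were centred on the mean of each group, which forces the unequal values down where the equal ones are high. The low range for unequal numbers is thus no separate finding. A blocked fit, with 10 residual degrees of freedom, is therefore given beside results it changes. It takes the same replicate effect in both lines and all treatments. No library copied another: chi-square over its degrees of freedom was at least 53.4 for any 2 replicates. On simulated counts of 21285 genes, changes were put into genes drawn at random among those with a mean above 1 CPM. The fit without the block recovered 75% of 4-fold and 22% of 2-fold triptolide changes in control cells, and the blocked fit 98% and 78%. False calls numbered 0 without the block and 11 with it. The drawn genes were not picked for a replicate gap like that of the members, so these shares do not carry over to them.

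Members, gene lists, alternatives and the naming rule were chosen with earlier results of these data known. Named were the members, ADAR, genes within 100000 bases, the 8 genes most like the members' mean and 3 most like each, the up to 4 other interferon genes with the smallest p per triptolide comparison or the largest line difference, and genes called in the other lists or, where none was, up to 3 with the highest level. Other genes were named after their values were seen: IFNB1, the receptor chains and kinases, FKBP5, CMPK1, IFI27 and BST2 under triptolide. Intervals of counts and ratios (95%, exact) and floors of 3 counts per library cover counting error only. P-values of the fit without the block are set against the spread between these biological replicates. Those of the blocked fit are set against the spread left after the replicate number is taken out. For the replicate number term, the difference between replicates is itself what is tested.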

Additional observations from a re-analysis of the deposited data

How the results depend on the processing

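Low counts of the 4 genes, 0 to 52 per gene and library, limit the libraries numbered 3. These libraries were not shallower than the others. They held 27317278 to 35674502 counts in genes, against 26709657 to 32816925 in those numbered 1 and 2. All 8 triptolide log2 values kept their sign under each scaling, without the filter, in the groups compared alone and with DESeq2. Scaling by counts in genes or by mitochondrial mRNAs lowers triptolide values in general, so these 2 scalings could not test the sign. Calls depended on the fit. Genes of the 4 called with triptolide in control and knockdown cells numbered 0 and 0 without the block and 2 and 4 with it. They numbered 0 and 1 by counts in genes, 1 and 3 by mitochondrial mRNAs, 3 and 4 without the filter, and 1 and 0 in the groups compared alone. Of all 21285 genes, 3403 and 4029 were called lower without the block and 5534 and 5976 with it. Lower calls were 7575 and 8513 by counts in genes, 5988 and 11413 by mitochondrial mRNAs, and 2955 and 3864 in the groups compared alone. Without the filter 4139 and 4536 of 48591 genes were lower. In pairs 1 and 2 with the block, an alternative chosen after seeing the data, 3 and 4 members were called. The genes called lower there numbered 4461 and 5028. Leaving out libraries gave 0 to 1 and 0 to 3 members, the highest without replicate 3, which leaves 2 libraries per group. For the replicate number term, leaving out libraries gave 2 to 4 of 4. The cause of these changes was not tested.

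The pairing also set the counts over all genes. Calls for triptolide went from 6565 to 11089 in control and from 7589 to 12163 in knockdown cells with the block (12240 in knockdown cells by mitochondrial mRNAs), and leaving out libraries gave 3386 to 6738 and 4368 to 7793. Calls between lines were 21, 20 and 14 untreated, with DMSO and with triptolide, against 123, 129 and 137 with the block. They were 91, 74 and 60 without the filter, 6, 8 and 9 in the groups compared alone, 52, 42 and 48 with DESeq2 and 56, 51 and 40 in pairs 1 and 2. By mitochondrial mRNAs they were 13 untreated and 8 with triptolide, and leaving out libraries gave 4 to 24, 3 to 21 and 2 to 17. For the interaction 0 calls became 1 with the block and 3 without the filter. DMSO in knockdown cells went from 0 to 25 calls without the filter. The number term had 12923 calls, 6823 to 12822 with libraries left out.

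The members' median line difference was 2.22 untreated, 2.51 with DMSO and 1.56 with triptolide, and leaving out libraries gave 1.31 to 3.70, 1.94 to 3.74 and 1.04 to 2.20. For the interaction it was -0.65, with -2.24 to 0.14, the ends being without control replicate 2 with DMSO and with triptolide. Sign changes were confined to uncalled values. RSAD2 with triptolide in control cells ran from -0.73 to 0.44 with libraries left out. DMSO against untreated in control cells turned to -0.29 for IFI44, -0.20 for RSAD2 and -0.12 for CMPK2 by mitochondrial mRNAs, which moved the median of all genes to -0.22. In the same comparison IFI44L turned to 0.0726 with the replicate block, 0.0058 without the filter and 0.12 in pairs 1 and 2. With libraries left out, IFI44, IFI44L, RSAD2 and CMPK2 ran from -1.10 to 1.75, -1.85 to 2.5, -0.43 to 0.97 and -0.34 to 1.25 in control cells. In knockdown cells they ran from -0.11 to 1.33, -0.58 to 1.51, -0.11 to 1.15 and -0.32 to 0.79.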
